A study of Mus musculus with 6 samples.

Results

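The abundant autosomal long noncoding RNAs (lncRNAs) of differentiating C2C12 cells were described across a Prr33-targeted line and its control. Members were the rows of the deposited gene count table called lncRNA on chromosomes 1 to 19 except 14, with at least 300 counts summed over all 6 libraries, after 8 names were dropped (H19, Igf2os, Airn, Meg3, Rian, Mirg, Kcnq1ot1 and Snhg14). The rule gave 292 members of 55804 rows. Of the 8780 lncRNA rows on these chromosomes, 4687 had a count of 0 in every library and 297 reached 300 counts, of which 5 were dropped by name. The members were thus chosen by their summed counts, so their abundance is not a result. The members with the fewest counts were 1700001L05Rik (300), Gm20139 (300) and 1700007J10Rik (301), and the lncRNAs just under the threshold were A130014A01Rik (299), Gm26981 (298) and Gm44777 (298).

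C2C12 cells are mouse myoblasts that stop dividing and form multinucleated myotubes in low serum. The Prr33-gRNA group (3 libraries, genotype given as PRR33 knocked down with a CRISPR/Cas9 guide RNA) and the Ctrl-gRNA group (3 libraries with a control guide RNA, genotype given as WT) had both been grown in 20% fetal bovine serum and then kept for 3 days in differentiation medium with 2% horse serum. The labels name no more than 1 line per guide and do not say that the libraries of a group were separate cultures, so an effect of the guide and a difference between derived lines cannot be told apart, and p-values reflect only how far these libraries vary, possibly for technical reasons. The comparison asks how the transcripts of the targeted line differ from those of the control line on day 3 of differentiation.

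Total counts ran from 17412383 to 19471762 in the Prr33-gRNA libraries and from 17006381 to 19118010 in the Ctrl-gRNA libraries. Prr33 itself had 793, 829 and 848 counts in the Prr33-gRNA libraries, against 1137, 990 and 913 in the Ctrl-gRNA libraries, a log2 fold change of -0.42 (SE 0.06; edgeR adjusted p = 1.37e-06). The 10 skeletal muscle markers were all detected, and their summed level in scaled counts (CPM) was 18705 to 19491 CPM in Prr33-gRNA and 30472 to 31038 CPM in Ctrl-gRNA, with 8 of the 10 lower and 2 higher. The 6 fibroblast markers (Lum at 0) summed to 821 to 886 CPM in Prr33-gRNA and 1261 to 1366 CPM in Ctrl-gRNA, with 1 higher (Col1a2, 2.63) and 4 lower (Col1a1 the lowest at -4.26). The 5 endothelial markers (Tie1 at 0) summed to 1.30 to 1.79 CPM in Prr33-gRNA and 2.38 to 3.45 CPM in Ctrl-gRNA. The 5 macrophage markers (Ptprc, Tyrobp and Adgre1 at 0) summed to 0.849 to 1.55 CPM in Prr33-gRNA and 1.13 to 1.82 CPM in Ctrl-gRNA, nearly all from Cd68. The 5 adipocyte markers (Cidec, Plin1 and Adipoq at 0) reached at most 0.0553 CPM in Prr33-gRNA and 0.0595 CPM in Ctrl-gRNA. The 5 neural markers (Snap25 and Rbfox3 at 0), nearly all Tubb3, summed to 2.01 to 2.16 CPM in Prr33-gRNA against 7.85 to 11.7 CPM in Ctrl-gRNA. The part of these marker shifts in the lncRNA differences below was not tested, and in bulk RNA fewer cells of a type and less RNA per cell cannot be told apart.

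lncRNAs are transcripts without a long translated reading frame, and many are spliced and capped like messenger RNAs. Some, such as Malat1 and Neat1, stay in the nucleus with its speckles and paraspeckles, while others act in the cytoplasm. Another class matters mainly for what is cut out of it: small nucleolar RNAs (snoRNAs, which guide chemical modification of ribosomal RNA) and microRNAs (miRNAs) are processed from host lncRNAs, whose spliced remnants are often short-lived. In skeletal muscle, lncRNA hosts carry the miRNAs miR-206 and miR-133b, and other lncRNAs act beside the genes of the myogenic programme.

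The mature miRNAs made from genes inside the members are shown because they name what the host transcripts carry; the libraries measured the hosts, not the mature miRNAs. There were 13 members with a gene annotated as miRNA inside them on the same strand. Sequences are from RefSeq (GRCm38.p6), written 5′ to 3′, and capitals mark the seed, bases 2 to 8, the stretch with which a miRNA recognises its targets.
mmu-miR-206-3p: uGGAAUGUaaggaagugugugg
mmu-miR-133b-3p: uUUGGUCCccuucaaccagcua
mmu-miR-199a-5p: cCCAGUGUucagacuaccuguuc
mmu-miR-199a-3p: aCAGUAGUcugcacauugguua
mmu-miR-214-3p: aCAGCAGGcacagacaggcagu
mmu-miR-100-5p: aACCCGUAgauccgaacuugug
mmu-miR-99a-5p: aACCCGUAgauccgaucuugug
mmu-miR-125b-5p: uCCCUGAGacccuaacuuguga
mmu-let-7a-5p: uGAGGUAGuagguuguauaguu
mmu-let-7c-5p: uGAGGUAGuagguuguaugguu
mmu-miR-22-3p: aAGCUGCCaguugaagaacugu
mmu-miR-31-5p: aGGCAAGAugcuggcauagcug
The miRNAs miR-206 and miR-133b lie in Gm28653, and miR-199a and miR-214 lie in Dnm3os. The clusters of Mir100hg (miR-100, let-7a-2 and miR-125b-1) and Mir99ahg (miR-99a, let-7c and miR-125b-2) are built alike. Counted from 1 at the 5′ end, miR-100-5p and miR-99a-5p share 21 of 22 bases and the seed ACCCGUA, and differ by A16U. Likewise let-7a-5p and let-7c-5p share 21 of 22 bases and the seed GAGGUAG, and differ by A19G, and both clusters give the same mature miR-125b-5p. Another host, 6720427I07Rik, carries let-7a-1, let-7d and let-7f-1 with the GAGGUAG seed.

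Over all 292 members, 45 were higher and 76 lower in Prr33-gRNA (edgeR, Benjamini-Hochberg adjusted p below 0.05 over the 14651 genes tested), and the other 171 did not pass. Scaled by library size alone, without TMM, 61 were higher and 61 lower, so the excess of lower members depended on the scaling. Among all genes tested, 25.5% were higher and 26.6% lower. The members' shares were 15.4% higher and 26.0% lower, so the lower share was near that of all genes and the higher share was under it. Fewer counts go with fewer calls: of the 147 members with under 600 counts, 30.6% passed, and of the 145 with more, 52.4%. Among the 9995 protein-coding genes on these chromosomes with at least 300 counts, 31.0% were higher and 26.7% lower, and among 1148 protein-coding genes with totals inside the members' interquartile range (395 to 1063 counts), 18.9% were higher and 26.0% lower. The median log2 fold change (Prr33-gRNA minus Ctrl-gRNA, as throughout) was -0.08 for the members and -0.00 for all genes tested.

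With changes of at least 2-fold, 5 members were higher (1.71%, against 2.91% of all genes tested) and 26 lower (8.9%, against 7.96%). The groups did not overlap for 142 members (48.6%), against 57.9% of all genes tested. All members passed the filter on low counts, 250 of them had at least 150 counts in each group, 20 had fewer than 150 over the Prr33-gRNA libraries, and 22 fewer than 150 over the Ctrl-gRNA libraries. For these a high level in the other group contributed to their choice. The members' share of all counts was 0.549, 0.527 and 0.548% in the Prr33-gRNA libraries, against 0.589, 0.605 and 0.615% in the Ctrl-gRNA libraries. Without Malat1 and Neat1 the other 290 members held 0.379% ± 0.00604 in Prr33-gRNA and 0.381% ± 0.00426 in Ctrl-gRNA (SD, n = 3 each, as for every ± below), a difference smaller than the SDs.

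**Figure D1:**
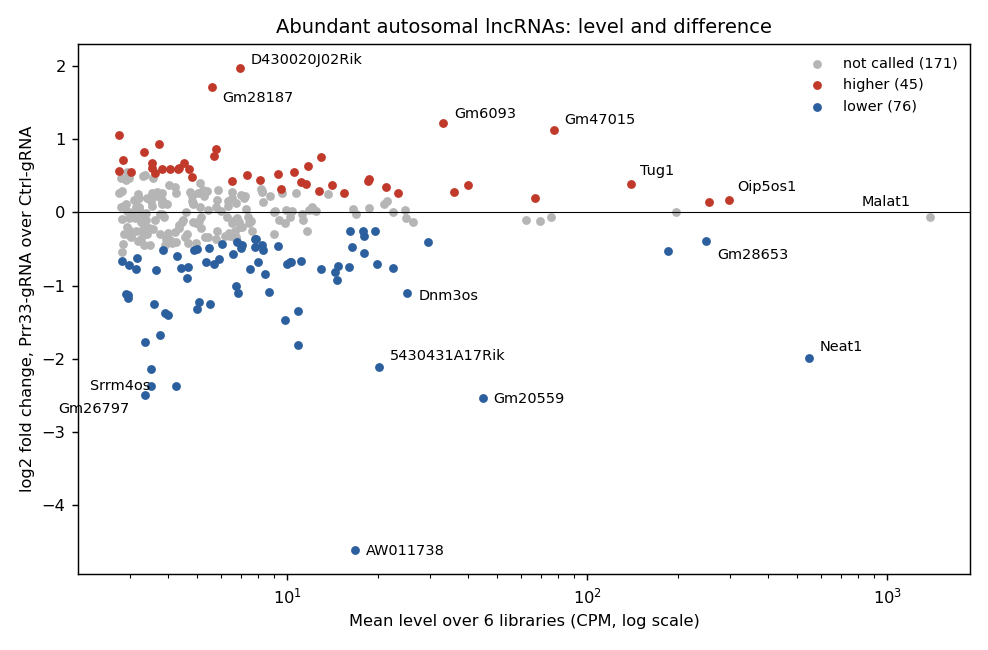
Each point is 1 of the 292 members, with its mean level over the 6 libraries (CPM, counts scaled to library size, log scale) on the x axis and its log2 fold change, Prr33-gRNA over Ctrl-gRNA, on the y axis; red marks the 45 higher members, blue the 76 lower ones and grey the 171 that did not pass. AW011738 lies lowest at -4.61, D430020J02Rik highest at 1.97, and the most abundant member, Malat1, near 0 at -0.06.

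Neat1, the scaffold of paraspeckles, was much scarcer in the Prr33-gRNA libraries, while its neighbour Malat1 did not pass the test. Levels are given as CPM, from TMM-scaled library sizes. Neat1 (chr19:5824708-5845478, minus strand) had 229.2, 210.0 and 219.8 CPM in the Prr33-gRNA libraries, against 903.5, 923.3 and 795.7 CPM in the Ctrl-gRNA libraries. Its highest Prr33-gRNA library lay far under its lowest Ctrl-gRNA library. The log2 fold change was -1.99 (SE 0.05; adjusted p = 7.64e-23).

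Malat1 (chr19:5795690-5802672, minus strand), a nuclear speckle RNA transcribed from the same strand nearby, had 1399, 1285 and 1394 CPM in Prr33-gRNA and 1298, 1366 and 1582 CPM in Ctrl-gRNA. Its groups overlapped (log2 fold change -0.06, SE 0.07, adjusted p = 0.523). The number of Neat1 counts per Malat1 count in the same library was 0.164, 0.163 and 0.158 in Prr33-gRNA, against 0.696, 0.676 and 0.503 in Ctrl-gRNA. The coding gene nearest to Neat1, Frmd8, did not pass (0.07, adjusted p = 0.353). Per length, as the deposited FPKM values, Malat1 was the highest member at 194 in Prr33-gRNA and 201 in Ctrl-gRNA, and Neat1 stood at 10.5 in Prr33-gRNA and 41.8 in Ctrl-gRNA.

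Levels of different genes can be set side by side only per length. In FPKM, Malat1 stood far above the other members. AI506816 had 59.2 FPKM in Prr33-gRNA and 53.6 FPKM in Ctrl-gRNA, and Oip5os1 had 37.5 FPKM in Prr33-gRNA and 33.3 FPKM in Ctrl-gRNA. For 2900097C17Rik the values were 40.2 FPKM in Prr33-gRNA and 39.8 FPKM in Ctrl-gRNA. Outside the rule for named members, and picked after their values were seen, Gm36377 had 59.7 FPKM in Prr33-gRNA and 45.5 FPKM in Ctrl-gRNA, and Gm15867 had 26.9 FPKM in Prr33-gRNA and 46.8 FPKM in Ctrl-gRNA. The high levels per length thus included members that were higher, lower and not called in Prr33-gRNA. Of the 388 exonic bases of Gm15867, 138 are shared with coding exons.

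Proteins of the paraspeckle did not move one way. Of 14 measured, 5 were higher and 5 lower, with a median log2 fold change of -0.04. Among all genes tested, 25.5% were higher and 26.6% lower. Nudt21, a cleavage factor that in human cells bears on which NEAT1 isoform is made, was higher at 64.5 ± 1.09 CPM in Prr33-gRNA against 50.3 ± 1.10 CPM in Ctrl-gRNA (0.36, adjusted p = 4.61e-06), and the chromatin remodeller Smarca4 was higher by 0.22 (adjusted p = 0.00013). Pspc1, a core paraspeckle protein, was lower (-0.64, adjusted p = 1.69e-07); its gene lies on chromosome 14, which the member rule leaves out.

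**Figure D2:**
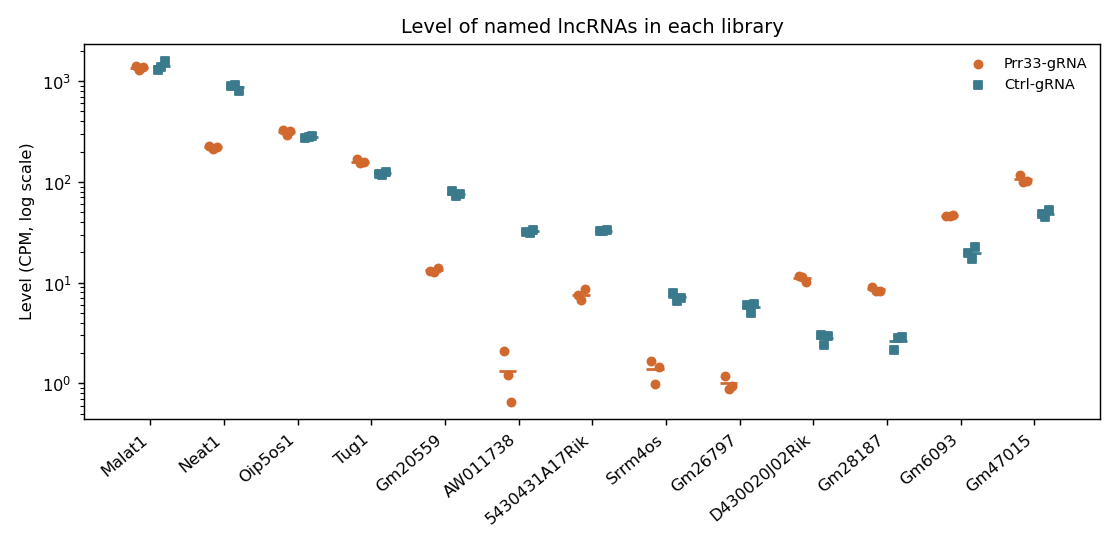
Points are CPM (log scale) of 13 named members in each of the 3 Prr33-gRNA libraries (circles, left) and 3 Ctrl-gRNA libraries (squares, right), with short lines at the group means. The groups of Malat1 overlap, and those of the other 12 do not, with Neat1 at 210.0 to 229.2 CPM in Prr33-gRNA against 795.7 to 923.3 CPM in Ctrl-gRNA.

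Members with clone names led the falls, and 244 of the 292 members have a clone or Rik name. AW011738 (ENSMUSG00000078349, chr4:156203270-156210563, plus strand) had 39, 22 and 13 counts in the Prr33-gRNA libraries, against 588, 514 and 565 counts in the Ctrl-gRNA libraries. As levels these were 2.12, 1.22 and 0.650 CPM in Prr33-gRNA against 31.8, 31.2 and 33.7 CPM in Ctrl-gRNA, the deepest fall among the members, with a log2 fold change of -4.61 (SE 0.19; adjusted p = 6.05e-13). The count table calls it lncRNA, while GENCODE M21 calls it protein-coding, as it does 3 of the 292 members. Its nearest tested coding gene, 2474 bp away, was Isg15, a ubiquitin-like protein induced by interferon, at 12.3 CPM in Prr33-gRNA against 601.5 CPM in Ctrl-gRNA (-5.62, adjusted p = 1.43e-37).

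Gm20559 (ENSMUSG00000106734, chr6:3333194-3346128, minus strand) was the next deepest. Its level was 13.0, 12.7 and 14.1 CPM in Prr33-gRNA, against 81.1, 72.2 and 75.9 CPM in Ctrl-gRNA, so the groups stood well apart (-2.53, SE 0.07, adjusted p = 6.96e-25). The nearest tested coding gene, Samd9l, another interferon-induced gene 26129 bp away, was at 64.1 CPM in Prr33-gRNA and 258.5 CPM in Ctrl-gRNA (-2.01, adjusted p = 1.01e-25). For 5430431A17Rik (chr7:44473538-44486138, plus strand) the level was 7.50, 6.70 and 8.56 CPM in Prr33-gRNA against 32.2, 32.8 and 33.3 CPM in Ctrl-gRNA (-2.11, adjusted p = 9.59e-19). Its nearest coding gene, the deubiquitinase gene Josd2, was lower by less (-0.37, adjusted p = 3.97e-06).

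Several of the 10 deepest falls, which include Neat1, were of members scarce even in the control. Gm26797, Atcayos and Srrm4os, like AW011738 above, were among the members with fewer than 150 counts over the Prr33-gRNA libraries. Their Ctrl-gRNA counts contributed to their choice, so their falls and adjusted p values are not independent of the member rule. Gm26797 (chr9:122295869-122310928, minus strand) averaged 1.01 ± 0.164 CPM in Prr33-gRNA and 5.70 ± 0.636 CPM in Ctrl-gRNA (-2.49, adjusted p = 1.35e-10), beside Ano10 at -0.17 (adjusted p = 0.0149). Atcayos averaged 1.14 ± 0.206 CPM in Prr33-gRNA against 5.88 ± 0.235 CPM in Ctrl-gRNA (-2.37, adjusted p = 1.77e-10). It lies antisense over Nmrk2, a muscle nicotinamide riboside kinase, which went the other way: 75.6 ± 2.43 CPM in Prr33-gRNA against 38.3 ± 3.53 CPM in Ctrl-gRNA (0.98, adjusted p = 9.16e-15). The counting is not stated to use strand, and 702 exonic bases of Atcayos are shared with coding exons, where reads of the strands cannot be told apart.

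Srrm4os, antisense to the neural splicing factor gene Srrm4, averaged 1.38 ± 0.351 CPM in Prr33-gRNA and 7.16 ± 0.626 CPM in Ctrl-gRNA (-2.37, adjusted p = 3.48e-11), with Srrm4 itself barely detected at 0.455 ± 0.339 CPM in Prr33-gRNA against 1.20 ± 0.427 CPM in Ctrl-gRNA (-1.40, adjusted p = 0.0154). The remaining falls of this depth were 4833415N18Rik (-2.14), Gm42047 (-1.81) and 4921525O09Rik (-1.77), each with Prr33-gRNA libraries all under the Ctrl-gRNA libraries. Of these, 4833415N18Rik and 4921525O09Rik also had fewer than 150 counts over the Prr33-gRNA libraries. Their falls and the separation of their groups are thus not independent of the member rule.

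Fewer members rose strongly. D430020J02Rik (ENSMUSG00000112980, chr12:116401947-116405210, minus strand) had 11.8, 11.3 and 10.1 CPM in Prr33-gRNA, against 3.03, 2.43 and 2.98 CPM in Ctrl-gRNA, the highest rise of the members (1.97, SE 0.17, adjusted p = 3.4e-12). It starts head to head with Ncapg2, a subunit of the condensin II complex that packs mitotic chromosomes, which was also higher at 74.5 CPM in Prr33-gRNA against 38.1 CPM in Ctrl-gRNA (0.97, adjusted p = 1.32e-14); the pair shares no exonic base. Gm28187 (chr1:101892958-101895091, minus strand) followed with 9.08, 8.36 and 8.31 CPM in Prr33-gRNA against 2.16, 2.85 and 2.86 CPM in Ctrl-gRNA (1.71, adjusted p = 8.54e-10). D430020J02Rik and Gm28187 were among the members with fewer than 150 counts over the Ctrl-gRNA libraries. Their Prr33-gRNA counts contributed to their choice, so their rises and adjusted p values are not independent of the member rule.

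The abundant rises were Gm6093 and Gm47015, whose groups were also far apart. Gm6093 (chr13:33562486-33569317, minus strand) had 45.6, 46.0 and 47.0 CPM in Prr33-gRNA, against 19.7, 17.2 and 22.8 CPM in Ctrl-gRNA (1.22, adjusted p = 2.28e-14). Gm47015 (chr10:79412962-79417905, minus strand) had 116.3, 100.2 and 101.5 CPM in Prr33-gRNA against 48.5, 44.7 and 52.2 CPM in Ctrl-gRNA (1.13, adjusted p = 6.29e-16). The rest of the 10 highest rises ran from 1.05 for Gm26682 through Gm13807 (0.94), Gm11613 (0.86), Gm40038 (0.83) and 9230114K14Rik (0.77) to Gm20300 (0.76). Of these, Gm26682, Gm13807 and Gm40038 also had fewer than 150 counts over the Ctrl-gRNA libraries. Their Prr33-gRNA counts contributed to their choice, so their rises are not independent of the member rule. Gm13807 rose beside a coding gene that fell, the tetraspanin gene Cd82 (-0.76, adjusted p = 2.46e-13), whereas 9230114K14Rik starts head to head with the helicase gene Dhx15, which was higher too (0.40, adjusted p = 5.62e-09).

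Among widely expressed regulatory lncRNAs, 3 of 10 members were higher and none was lower, with a median of -0.03 and a highest value of 0.67. The higher share of 30.0% was near the 25.5% of all genes tested. Tug1, a broadly expressed lncRNA with roles in the nucleus and cytoplasm, had 166.9, 152.3 and 157.9 CPM in Prr33-gRNA, against 119.5, 117.7 and 126.4 CPM in Ctrl-gRNA. The groups did not overlap (0.39, SE 0.05, adjusted p = 3.21e-08). It starts head to head with Morc2a (0.14, adjusted p = 0.0165), and 483 of its exonic bases are shared with coding exons.

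Oip5os1, the mouse Cyrano RNA, which in the brain drives the decay of the miRNA miR-7, had 325.1, 290.6 and 322.5 CPM in Prr33-gRNA, against 274.6, 278.8 and 282.3 CPM in Ctrl-gRNA (0.17, SE 0.05, adjusted p = 0.00222). The lowest Prr33-gRNA library was only slightly over the highest Ctrl-gRNA library. The other higher member, Mir99ahg, is described with the miRNA hosts. Of the others, 2900097C17Rik was at 198.1 ± 5.65 CPM in Prr33-gRNA and 197.0 ± 8.87 CPM in Ctrl-gRNA (0.01, adjusted p = 0.9). Pvt1, the neighbour of the Myc gene, had -0.37 (adjusted p = 0.0514), while Myc passed at -0.38 (adjusted p = 8.51e-05). Pvt1 passed without Ctrl-gRNA replicate 1 (-0.45), without chromosome 14 (-0.39) and with a filter of 1 CPM (-0.38). Hotair, transcribed within the Hoxc cluster, had -0.34 (adjusted p = 0.11), Hoxa11os, antisense to Hoxa11, had -0.26 (adjusted p = 0.191), and Lockd, downstream of the cell-cycle inhibitor gene Cdkn1b, had 0.19 (adjusted p = 0.479).

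Gm26917 (chr17:39843013-39846341) lies in a stretch of chromosome 17 that resembles ribosomal RNA. It had 145.5, 153.6 and 157.9 CPM in Prr33-gRNA, against 221.1, 223.8 and 214.4 CPM in Ctrl-gRNA (-0.53, adjusted p = 7.61e-12). Mitochondrial ribosomal RNAs moved with it, at 0.0969% ± 0.00724 of counts in Prr33-gRNA and 0.218% ± 0.0134 in Ctrl-gRNA; the part of ribosomal RNA carry-over was not tested. Of the 12 members with the most counts, the remaining ones moved little: AI506816 had 0.14 (adjusted p = 0.00975) and AU020206 0.19 (adjusted p = 0.0165), the AU020206 groups overlapping and its call lost without Prr33-gRNA replicate 1 (0.17), Ctrl-gRNA replicate 1 (0.15) or Ctrl-gRNA replicate 2 (0.13).

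The 3 muscle-linked members with a known symbol passed the test, 2 lower and 1 higher, where 52.1% of all genes tested passed. Dnm3os (chr1:162217623-162225550, plus strand), the host of miR-199a and miR-214 that developing mesenchyme expresses, had 17.1, 14.3 and 16.7 CPM in Prr33-gRNA, against 32.7, 35.1 and 35.1 CPM in Ctrl-gRNA. All Prr33-gRNA libraries were far under the Ctrl-gRNA ones (-1.10, SE 0.09, adjusted p = 9.03e-13). Dnm3, the dynamin gene in which it lies antisense, was higher at 11.5 ± 0.232 CPM in Prr33-gRNA against 6.11 ± 0.644 CPM in Ctrl-gRNA (0.91, adjusted p = 9.99e-07), and the exons of Dnm3os share no base with coding exons.

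Nctc1, transcribed over a muscle enhancer of the Igf2-H19 region, had 6.31, 6.14 and 5.70 CPM in Prr33-gRNA, against 10.9, 11.0 and 10.7 CPM in Ctrl-gRNA (-0.84, SE 0.14, adjusted p = 4.26e-06). The libraries of each group lay close together and the groups stood apart. Its nearest coding gene, Mrpl23, did not pass (-0.07, adjusted p = 0.472). Nctc1 lies on chromosome 7, as does the targeted gene Prr33, and the part of this location in its fall was not tested. Dubr, a lncRNA linked to the differentiation of mouse myoblasts, went the other way, with 13.8, 12.5 and 11.8 CPM in Prr33-gRNA against 8.17, 9.34 and 10.9 CPM in Ctrl-gRNA (0.42, SE 0.13, adjusted p = 0.00636). The lowest Prr33-gRNA library was just above the highest Ctrl-gRNA one, and the call was lost without Ctrl-gRNA replicate 1 (0.33).

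Of the 13 miRNA hosts, 4 were higher and 4 lower, with a median of -0.06; 52.1% of all genes tested passed in either direction. Gm28653 (ENSMUSG00000099906, chr1:20669882-20684298, plus strand), which holds the genes of the muscle miRNAs miR-206 and miR-133b shown above, was the most abundant host. It had 227.2, 193.1 and 227.0 CPM in Prr33-gRNA, against 275.4, 285.9 and 286.2 CPM in Ctrl-gRNA. The groups did not overlap and the log2 fold change was -0.39 (SE 0.05; adjusted p = 2.28e-07). Per length it stood at 38.7 FPKM in Prr33-gRNA and 50.5 FPKM in Ctrl-gRNA, among the highest members.

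The paired clusters with the ACCCGUA seed did not share a call. Mir100hg had 73.3, 68.9 and 78.4 CPM in Prr33-gRNA and 77.8, 74.5 and 79.7 CPM in Ctrl-gRNA, with overlapping groups (-0.07, adjusted p = 0.31). Mir99ahg was scarce and variable, with 4.51, 4.98 and 7.05 CPM in Prr33-gRNA against 2.33, 4.12 and 4.05 CPM in Ctrl-gRNA (0.67, SE 0.22, adjusted p = 0.0109). Its call was lost without Prr33-gRNA replicate 3 (0.45) or Ctrl-gRNA replicate 1 (0.44), and the difference between the clusters was not tested. Of the other let-7 host, 6720427I07Rik, the groups overlapped (-0.06, adjusted p = 0.773).

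Mir22hg, the host of miR-22, had 67.2, 61.4 and 71.8 CPM in Prr33-gRNA and 67.8, 74.4 and 75.3 CPM in Ctrl-gRNA (-0.12, adjusted p = 0.116), with overlapping groups. It passed at -0.17 without Prr33-gRNA replicate 3 and at -0.16 without Ctrl-gRNA replicate 1. Gm49890, which holds the miR-31 gene, was at 10.4, 9.30 and 12.1 CPM in Prr33-gRNA against 8.17, 8.19 and 9.11 CPM in Ctrl-gRNA. That was near the threshold (0.32, adjusted p = 0.0464), and its call was lost without Prr33-gRNA replicate 1 (0.34) or 3 (0.22) and without Ctrl-gRNA replicate 1 (0.29) or 2 (0.30).

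Gm35853, which holds Mir1941 and lies antisense over the keratin gene Krt80, fell with it: 2.56, 2.43 and 1.60 CPM in Prr33-gRNA against 5.95, 5.03 and 6.37 CPM in Ctrl-gRNA (-1.40, adjusted p = 1.41e-06), with Krt80 at -0.60 (adjusted p = 7.45e-12). Gm35853 had fewer than 150 counts over the Prr33-gRNA libraries, and its Ctrl-gRNA counts contributed to its choice. Its fall and adjusted p are thus not independent of the member rule. In Gm35853, 263 exonic bases are shared with coding exons, where reads of the strands cannot be told apart. Gm20632 was lower (-0.71, adjusted p = 2.69e-05) beside the histone gene H3c15 (-1.08, adjusted p = 7.66e-07), with 528 exonic bases shared with coding exons. Gm11613 was higher by 0.86 and Snhg4 by 0.27 (adjusted p = 0.0288), and Snhg20 (-0.00) and 2900076A07Rik (0.08) did not pass.

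**Figure D3:**
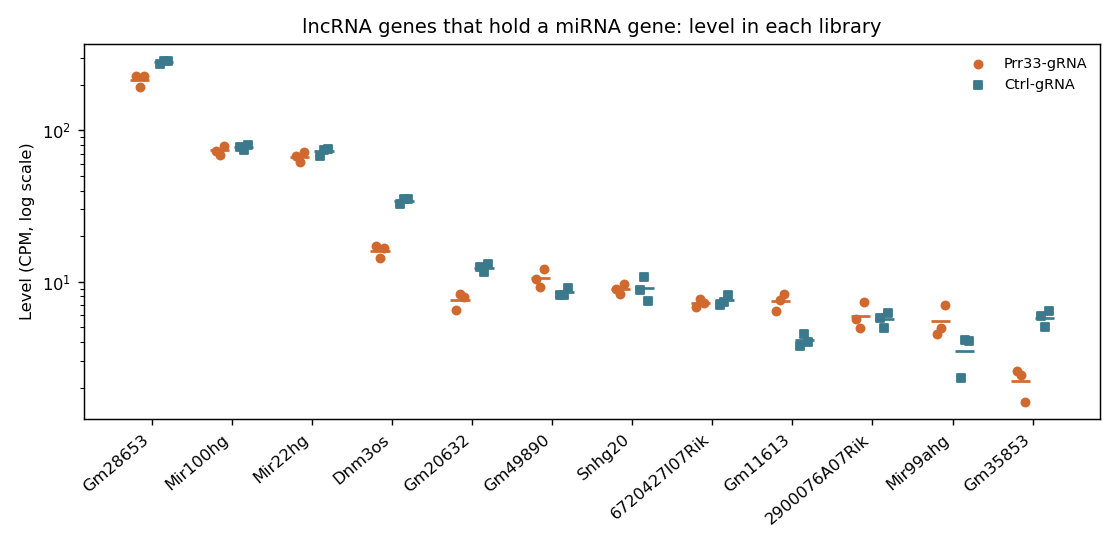
Points are CPM (log scale) of 12 lncRNAs with a miRNA gene inside, in the 3 Prr33-gRNA libraries (circles, left) and the 3 Ctrl-gRNA libraries (squares, right), with lines at the means; Snhg4 is in the plot of snoRNA hosts. Dnm3os, Gm28653, Gm20632 and Gm35853 have all Prr33-gRNA libraries under all Ctrl-gRNA libraries, and Mir100hg and Mir22hg overlap.

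Host genes of snoRNAs differed by small amounts. Of the 21 members with a snoRNA gene inside, 5 were higher (23.8%) and 2 lower (9.52%), against 25.5% and 26.6% of all genes tested, with a median of 0.11. Of the 13 with a snoRNA host symbol, 3 were higher and 1 lower, also with a median of 0.11. Snhg5, the host of Snord50a and Snord50b, had 21.9, 20.1 and 22.7 CPM in Prr33-gRNA, against 14.1, 16.98 and 16.4 CPM in Ctrl-gRNA. The groups did not overlap (0.45, SE 0.10, adjusted p = 0.000242).

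Gas5, a host of many box C/D snoRNAs named for its build-up in growth arrest, had 14.1, 13.1 and 12.1 CPM in Prr33-gRNA, against 7.36, 11.0 and 11.6 CPM in Ctrl-gRNA. Ctrl-gRNA replicate 1 was lower than the other libraries of its group, and the call (0.39, SE 0.14, adjusted p = 0.0185) was lost without it (0.21) and without Prr33-gRNA replicate 1 (0.34). Its head-to-head neighbour Zbtb37 did not pass (-0.04, adjusted p = 0.702). Snhg4 lost its call without Prr33-gRNA replicate 3 (0.24), Ctrl-gRNA replicate 1 (0.26) or Ctrl-gRNA replicate 2 (0.26). A row of the same symbol called protein-coding overlaps it and was not tested.

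Zfas1 (chr2:167062934-167065862, plus strand) was the snoRNA host with the deepest fall. It had 15.3, 17.4 and 17.5 CPM in Prr33-gRNA, against 27.3, 29.7 and 28.1 CPM in Ctrl-gRNA, with groups well apart (-0.76, SE 0.09, adjusted p = 6.97e-09). Its head-to-head coding gene Znfx1, an interferon-induced helicase, had 128.0 ± 5.19 CPM in Prr33-gRNA and 492.8 ± 9.34 CPM in Ctrl-gRNA (-1.95, adjusted p = 4.36e-28). The first exons overlap, and 82 exonic bases of Zfas1 are shared with coding exons. The other lower host, 2410006H16Rik, which carries Snord49a, Snord49b and Snord65, averaged 6.16 ± 0.925 CPM in Prr33-gRNA against 9.83 ± 0.805 CPM in Ctrl-gRNA (-0.68, adjusted p = 0.000268).

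The other host symbols did not pass. They were Snhg1 (0.11), Snhg6 (0.20), Snhg8 (0.16), Snhg12 (0.13), Snhg15 (0.02), Snhg16 (-0.34), Snhg17 (-0.13), Snhg18 (-0.42) and Snhg20 (-0.00). Snhg1 lies 106 bp from Slc3a2, an amino acid transporter subunit that was lower (-0.89, adjusted p = 4.66e-17), and Snhg18 lies 148 bp from the semaphorin gene Sema5a, which was higher (1.59, adjusted p = 9.01e-18). Snhg16 passed without Ctrl-gRNA replicate 3 (-0.48) and Snhg18 without Prr33-gRNA replicate 1 (-0.57).

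**Figure D4:**
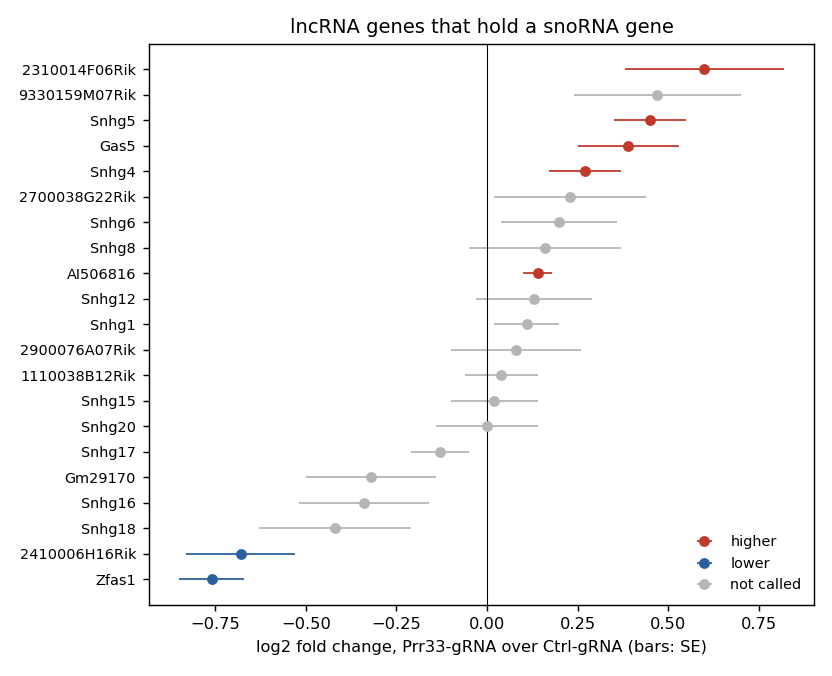
The log2 fold change (Prr33-gRNA over Ctrl-gRNA) of the 21 lncRNAs with a snoRNA gene inside, with bars of 1 SE; red marks the 5 higher hosts, blue the 2 lower ones and grey those that did not pass. Zfas1 (-0.76) and 2410006H16Rik (-0.68) lie lowest, and the other hosts lie between -0.42 and 0.60.

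Proteins that bind snoRNAs or act on noncoding transcripts moved in both directions, where 25.5% of all genes tested were higher and 26.6% lower. Of 12 snoRNA-protein particle genes, 5 were higher and 3 lower (median 0.04): the core box C/D protein Nop58 was higher at 134.0 ± 3.32 CPM in Prr33-gRNA against 95.7 ± 4.88 CPM in Ctrl-gRNA (0.49, adjusted p = 6.35e-10), and the assembly factors Naf1 (0.64, adjusted p = 3.74e-08) and Nufip1 (-0.84, adjusted p = 1.1e-08) went opposite ways. Of 14 nonsense-mediated decay factors, the pathway that clears many spliced snoRNA hosts, 2 were higher and 2 lower (median -0.05), with the exon junction proteins Magoh (0.37, adjusted p = 0.000416) and Rbm8a (-0.24, adjusted p = 0.00306) at the ends. Of 17 tested genes of the nuclear exosome and its cofactors, which degrade nuclear noncoding RNA, 5 were higher and 4 lower (median 0.00). The poly(A)-binding protein gene Pabpn1 (-1.07, adjusted p = 2.19e-09) and the nuclease gene Dis3 (-0.61, adjusted p = 1.82e-08) were the deepest falls there. These 2 and Nufip1 lie on chromosome 14.

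By position, each member was put in 1 class, in the order given here. A coding gene on the same strand overlaps 32 members. Of the rest, 84 start within 1 kb of a coding gene on the other strand (head to head). Then 60 lie antisense over a coding gene, and the other 116 do none of these. Some head-to-head members overlap no coding gene body either, and 152 members in all overlap none. Head-to-head members were 14 higher and 23 lower (median -0.10), antisense members 6 and 16 (-0.18), sense members 2 and 7 (-0.15), and the others 23 and 30 (0.00). The lower shares, from 21.9% to 27.4%, were near the 26.0% of all members and the 26.6% of all genes tested. The higher shares, from 6.25% (sense) to 19.8% (the others), were under the 25.5% of all genes tested, and all members had 15.4%. With library size alone the counts were 17 and 18 head to head, 9 and 14 antisense, 4 and 4 sense, and 31 and 25 for the others. Because no strand setting is stated for the counting, reads of overlapping genes cannot be told apart. Of the 152 members that overlap no coding gene body, 30 were higher (19.7%) and 39 lower (25.7%). In all, 108 members share at least 1 exonic base with a coding exon.

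Across 82 head-to-head pairs, the log2 fold changes of lncRNA and coding gene had a Pearson r of 0.37 and a Spearman rho of 0.35. The pairs are genes of the same 6 libraries, and 42 of the members share exonic bases with coding exons. Both partners passed in 24 pairs, 18 of them in the same direction and 6 in opposite ones. Across 78 members with neither an overlapping nor a head-to-head coding gene and their nearest tested coding gene within 50 kb, r was 0.62 and rho 0.36, and without AW011738, which lies beside Isg15, r was 0.33 and rho 0.33. Antisense pairs had r = 0.21 and rho = 0.30 over 54 pairs, and sense pairs r = 0.39 and rho = 0.46 over 24 pairs. An opposite case outside the rule for named members, picked after its values were seen, is 4930429F24Rik, which was lower (-0.92, adjusted p = 3.17e-08) beside Tmem30a, which was higher (0.41, adjusted p = 1.5e-08).

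**Figure D5:**
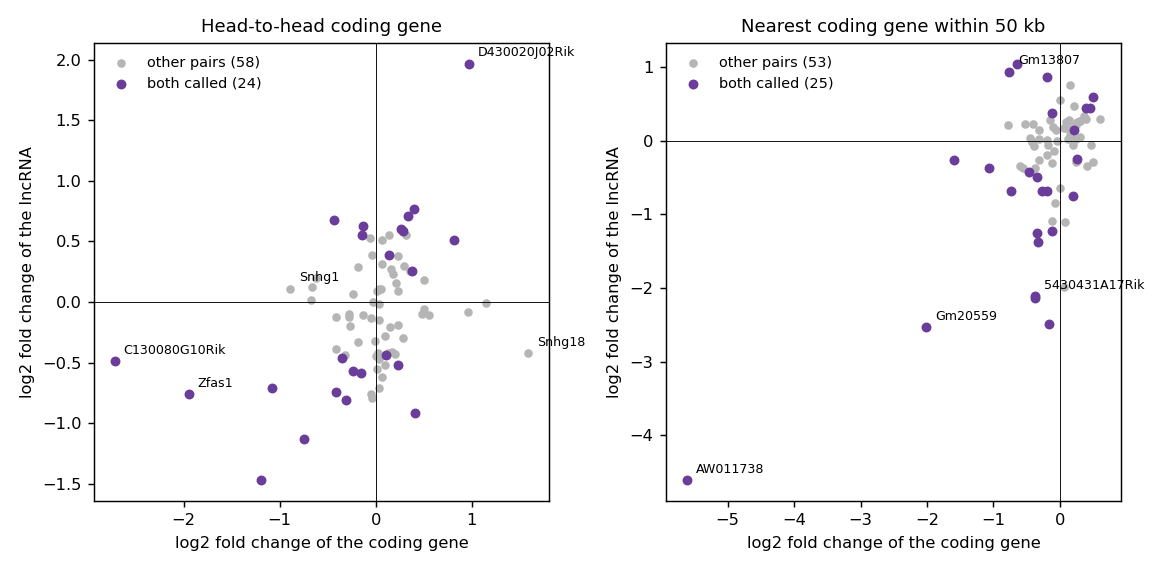
Each point is a lncRNA and its coding neighbour, with the coding gene's log2 fold change on the x axis and the lncRNA's on the y axis, for 82 head-to-head pairs (left) and 78 members with neither an overlapping nor a head-to-head coding gene and their nearest tested coding gene within 50 kb (right); purple marks pairs in which both passed. Purple points lie mostly in the lower left and upper right, with 18 of 24 and 19 of 25 in the same direction, and AW011738 with Isg15 lies far to the lower left.

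Promoter windows are shown for some members whose neighbour is close or whose fall was deep, not for all of them. They run from 250 bases before to 50 after the start, from RefSeq (GRCm38.p6), 5′ to 3′ on the gene's own strand. In the windows of AW011738 (chr4:156203034-156203333, plus strand), Zfas1 (chr2:167062684-167062983, plus strand) and D430020J02Rik (chr12:116405112-116405411, minus strand), capitals mark the first 10 bases from the start. In the window of Gm26797 (chr9:122310879-122311178, minus strand), they mark a match to GAAANNGAAA, the core of the interferon-stimulated response element. Among lower members with a window, Gm26797 was the only 1 with such a match, so it does not stand for the falls. The 2 higher members with a match, Gm36377 and Rab10os, are not shown.
AW011738: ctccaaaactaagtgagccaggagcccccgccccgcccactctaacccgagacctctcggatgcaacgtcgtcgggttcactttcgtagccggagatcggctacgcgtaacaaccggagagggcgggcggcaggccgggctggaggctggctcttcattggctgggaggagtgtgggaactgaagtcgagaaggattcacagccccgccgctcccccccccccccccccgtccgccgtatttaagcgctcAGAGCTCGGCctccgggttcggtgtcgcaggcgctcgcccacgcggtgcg
Gm26797: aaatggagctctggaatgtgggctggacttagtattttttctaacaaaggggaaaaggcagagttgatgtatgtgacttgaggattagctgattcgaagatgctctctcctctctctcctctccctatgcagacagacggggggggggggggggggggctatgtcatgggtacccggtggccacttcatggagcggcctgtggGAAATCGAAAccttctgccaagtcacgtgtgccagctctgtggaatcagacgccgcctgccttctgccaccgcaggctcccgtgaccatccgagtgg
Zfas1: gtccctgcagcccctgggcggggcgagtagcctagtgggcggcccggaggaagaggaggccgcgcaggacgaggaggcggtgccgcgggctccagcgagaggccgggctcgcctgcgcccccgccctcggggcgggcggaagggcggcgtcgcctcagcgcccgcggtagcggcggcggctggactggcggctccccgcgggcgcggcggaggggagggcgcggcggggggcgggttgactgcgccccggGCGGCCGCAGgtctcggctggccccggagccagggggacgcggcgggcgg
D430020J02Rik: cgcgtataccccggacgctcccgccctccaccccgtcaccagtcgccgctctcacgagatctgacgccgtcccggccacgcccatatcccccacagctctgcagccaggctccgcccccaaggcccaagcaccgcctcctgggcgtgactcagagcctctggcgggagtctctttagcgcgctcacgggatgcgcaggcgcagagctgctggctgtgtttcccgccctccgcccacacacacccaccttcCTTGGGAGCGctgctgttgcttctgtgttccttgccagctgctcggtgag
With the coding starts of the count table, the start of Znfx1 lies 81 bases inside Zfas1, so the transcripts of the pair overlap at their 5′ ends, while the start of Ncapg2 lies 241 bases before that of D430020J02Rik. Of the 292 members, 155 matched a RefSeq window by symbol. GAAANNGAAA, searched on both strands, was in 5 of the 155 (3.23%), against 3.99% of 27025 symbols in the RefSeq table. By call it was in 1 of 43 lower members (2.33%), 2 of 25 higher ones (8.0%) and 2 of 87 others (2.3%). The match in Gm26797 begins 47 bases before the start, and the AW011738 window holds none. The myogenic E-box CAGCTG, which reads the same on both strands, was in 28 of the 155 windows (18.1%), against 18.3% of symbols. It was in 4 of 25 higher members (16.0%), 8 of 43 lower ones (18.6%) and 16 of 87 others (18.4%). A match describes letters in the window and is not a binding site.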

How the data were processed

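The authors' deposited gene counts are whole reads per library, without normalization. The submitters' processing notes name HISAT2 2.0.5, featureCounts 1.5.0-p3, CASAVA and the mm10 build, with no strand setting given in the sources used here. Libraries were made from TRIzol-extracted total RNA with a NEBNext Ultra kit, per the labels' protocols. FPKM values deposited by the authors were used for levels per length and for alternative tests. Groups were taken from the sample titles. The whole count table was tested with the quasi-likelihood test of edgeR 4.0.16 (robust fit, filterByExpr, TMM scaling, no covariate; R 4.3.3), which kept 14651 genes, followed by Benjamini-Hochberg adjustment over these genes. The SE is the absolute log2 fold change over the square root of F. CPM uses TMM-scaled library sizes, and 3 counts correspond to 0.150 to 0.182 CPM, which covers counting error only.

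Replicates varied beyond sampling noise (per-gene chi-square of 2.89 to 5.68 between libraries of a group), so none was a repeat sequencing run of another. This does not show whether they came from separate cultures. The members and the lists were chosen with earlier results of these data known. Named were the 12 members with the most counts, the 10 highest rises and 10 deepest falls that passed with groups that do not overlap, members of the symbol lists, miRNA hosts, the 3 members just inside and the 3 lncRNAs just outside the threshold, coding partners of these, and up to 4 genes of each protein list with the lowest adjusted p. A gene that this rule names is not reported here. The snoRNA host 2410006H16Rik, outside the rule, is named because only 2 hosts were lower, and was chosen after its values were seen. Positions, strands and biotypes of inner genes are from the deposited count table. Shared exonic bases are from the exons of GENCODE M21 (GRCm38), in which all 292 members were found. Alternatives were RLE size factors, library size alone, DESeq2 1.42.0, limma-voom (limma 3.58.1), other filters and thresholds, a replicate block, chromosome 14 left out, limma on log2(FPKM + 1) and log2(FPKM + 0.1), and each library left out. Figures were drawn with matplotlib 3.10.9.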

Additional observations from a re-analysis of the deposited data

How the results depend on the processing

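Among 1062 values of 59 named members under the alternatives, 987 kept their side of the threshold, 68 no longer passed and 7 came to pass. No named member that passed changed direction, but some near 0 that did not pass changed sign, such as Malat1 (0.03 with library size alone and without Ctrl-gRNA replicate 3) and Mir100hg (0.02 with library size alone). Of the 121 members called, 104 were also called by DESeq2 and 116 by limma-voom. With library size alone (61 higher, 61 lower), 106 were also called, 15 lost and 16 gained, and the median moved to 0.09 for all genes and 0.01 for the members. The counts that moved by more than 1.5 times did so as follows. With an adjusted p below 0.01, 27 members were higher, as were 1 snoRNA host by symbol, 1 member with a miRNA gene, 2 with a snoRNA gene, 8 head-to-head, 2 antisense and 0 sense members, and 3 sense members were lower. Requiring a log2 change of 1 or more either way, 5 members were higher and 26 lower; the snoRNA hosts by symbol and members with a snoRNA gene had 0 and 0, those with a miRNA gene 0 and 2, head-to-head members 1 and 3, antisense 0 and 8, sense 0 and 2, and members with no overlapping or head-to-head coding gene 4 and 13. With at least 600 counts 29 were higher and 47 lower, and without an overlapping coding gene 39 were lower; these rules test fewer members. DESeq2 gave 2 higher miRNA hosts and, among sense members, 0 higher and 4 lower, library size alone gave 4 and 4 there, and limma gave 3 higher antisense members on log2(FPKM + 1) and 3 on log2(FPKM + 0.1). For these the cause was not tested.

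With each library left out in turn, the members higher ran from 33 to 46 and those lower from 65 to 71, fewest in all without Ctrl-gRNA replicate 1 (98 called, 93 of them among the 121). The ranges, higher then lower, were 1 to 3 and 1 to 2 for snoRNA hosts by symbol, 3 to 5 and 2 to 3 with a snoRNA gene, 1 to 4 and 4 to 5 with a miRNA gene, 11 to 14 and 18 to 23 head to head, 3 to 6 and 13 to 16 antisense, 0 to 2 and 4 to 7 sense, and 18 to 25 and 26 to 28 for members with no overlapping or head-to-head coding gene. The titles do not say that a replicate number is shared between the groups. Deviations of same-numbered libraries correlated by -0.0622, 0.022 and 0.1711, so no strong pairing by number was seen. With so few libraries, these values cannot show whether same-numbered libraries were handled together. A replicate block gave 121 calls, 120 of them among the 121. Depth limits small differences in members near 300 counts, where 3 libraries a group leave SEs of about 0.24.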

Other observations

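The calls of members by chromosome, and the genes named here, were picked after their values were seen. On chromosome 8, 9 of 18 members were lower and 0 higher, with a median of -0.37, and on chromosome 3, 7 of 18 were lower and 1 higher (median -0.31). On chromosome 17, 2 of 16 were lower and 4 higher (median -0.02). Over all members 26.0% were lower and 15.4% higher, and over all genes tested 26.6% and 25.5%. The lncRNA of the Rosa26 locus, Gt(ROSA)26Sor, a broadly transcribed locus used for transgenes, was higher (14.2 ± 1.34 CPM in Prr33-gRNA, 9.20 ± 1.63 CPM in Ctrl-gRNA, log2 fold change 0.63, edgeR adjusted p = 0.000123). It shares 145 exonic bases with coding exons. C130080G10Rik was lower (-0.49, adjusted p = 0.00886) beside its head-to-head gene Actc1, cardiac actin of developing muscle, which was lower by more (-2.72, adjusted p = 1.92e-33). None of these differences between chromosomes or pairs was tested.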
